A study of Mus musculus with 9 samples.

Results

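The genes described here encode 8 small four-pass membrane proteins of blood leukocytes, Tmem176a and Tmem176b on chromosome 6 and Ms4a4b, Ms4a4c, Ms4a6b, Ms4a6c, Ms4a6d and Ms4a7 on chromosome 19. They are 8 of the 20926 genes of the expression matrix. They were chosen by family and with their measured levels and differences between the groups in these same libraries already known. Their values are therefore given as a description, and no p-value is printed for any of them. Where their number past a threshold is counted, that count describes the choice and is not a test.

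The libraries were made from blood, labelled as leukocyte, of male DBA/1 mice, with 3 mice in each of 3 groups. The labels give their age as 7 weeks, which in the study's methods is the age at grouping, before immunisation and irradiation. The Ctrl mice had no arthritis. Collagen-induced arthritis (CIA), a model of rheumatoid arthritis, was raised in the CIA mice with chick type II collagen in complete Freund's adjuvant and a booster in incomplete adjuvant. Arthritis was raised in the same way in the CIA+THz mice, whose ankles then received 0.1 THz radiation on 14 days, for 30 min each day, under isoflurane. Whether the other mice were anaesthetised is not stated in the sources used here. The blood was therefore not the tissue that was irradiated, and no group was irradiated without arthritis.

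MS4A proteins cross the membrane 4 times, keep both ends in the cytoplasm and mostly work beside other receptors. The best known are CD20 (Ms4a1), the B cell antigen, and the beta chain of the IgE receptor (Ms4a2). Many rodent Ms4a genes arose by local duplication, so that near copies lie side by side. Tmem176a and Tmem176b are distant relatives of this family. Tmem176b is known as a cation channel of intracellular membranes in myeloid cells that restrains the NLRP3 inflammasome. Ms4a4b is best known from T cells, where it associates with the receptor GITR (Tnfrsf18), and Ms4a6d and Ms4a7 are known from monocytes and macrophages.

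The layout of the genes decides which reads can be told apart. In GENCODE M21 on mm10, the genome build named in the submitters' processing notes, Tmem176b (chr6:48833818-48841496, minus strand) and Tmem176a (chr6:48840919-48847071, plus strand) stand head to head and overlap by 578 bases at their 5′ ends. That is the overlap of the whole annotated genes, introns included. The library kit does not mark strand, so strand cannot assign reads that lie within it. The Ms4a genes span chr19:10962293-11640851, where Ms4a4c (11404770 to 11427246), Ms4a4b (11443553 to 11467055), Ms4a6c (11469366 to 11482192) and Ms4a6b (11516512 to 11531256) follow each other on the plus strand. Ms4a7 (11321039 to 11336146) and Ms4a6d (11586604 to 11604849) lie on the minus strand. The coding sequences of Ms4a4b and Ms4a4c were identical at 91.8% of 681 aligned bases. Those of Ms4a6b and Ms4a6c were identical at 86.3%, of Ms4a6b and Ms4a6d at 81.8%, and of Ms4a6c and Ms4a6d at 79.7%, whereas Tmem176a and Tmem176b shared 61.8%, within the range of 60.6% to 68.0% found between either Tmem176 gene and an Ms4a gene. For each gene 1 transcript was taken, that with the longest complete coding sequence. No stretch of 150 bases, the read length, of these transcripts occurred in any transcript of another of the 8 genes. Other transcripts of the 8 genes were not compared with each other. For Ms4a6c, 49.7% of such stretches also lay in BE692007, a transcript annotated on the opposite strand that is not a row of the matrix, so the level of Ms4a6c may include reads from it.

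The sequences before the starts of the neighbouring copies are shown because these close copies stood at different levels or on different sides of Ctrl in the blood. They come from the RefSeq promoter table on GRCm38.p6, which is mm10, in the reference strain and not DBA/1. The table held 7 of the 8 genes and not Ms4a6d. Each is written 5′ to 3′ along the gene, and capitals mark runs of at least 10 bases that are identical in the best local alignment to the partner. In the pair Ms4a4b (chr19:11443308-11443552, plus strand) and Ms4a4c (chr19:11407411-11407660, plus strand), 88.5% of 131 aligned bases were identical, in the part of the window nearest the start.
Ms4a4b: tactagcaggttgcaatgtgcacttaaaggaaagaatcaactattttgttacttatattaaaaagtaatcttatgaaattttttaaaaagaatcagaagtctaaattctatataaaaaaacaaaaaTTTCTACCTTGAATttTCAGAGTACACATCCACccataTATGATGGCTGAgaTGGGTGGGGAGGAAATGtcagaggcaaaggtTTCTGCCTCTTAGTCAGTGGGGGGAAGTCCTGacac
Ms4a4c: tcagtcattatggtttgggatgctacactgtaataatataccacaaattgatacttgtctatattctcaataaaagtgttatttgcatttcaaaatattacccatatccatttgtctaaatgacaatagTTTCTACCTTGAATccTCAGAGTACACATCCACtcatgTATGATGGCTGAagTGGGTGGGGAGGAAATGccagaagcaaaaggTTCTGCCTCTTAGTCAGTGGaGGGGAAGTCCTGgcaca

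In the pair Ms4a6b (chr19:11518309-11518558, plus strand) and Ms4a6c (chr19:11469118-11469365, plus strand), 86.0% of 171 aligned bases were identical, with an unbroken run of 47. The 3′ part of the Ms4a6b window is also a first exon of another annotated transcript of that gene.
Ms4a6b: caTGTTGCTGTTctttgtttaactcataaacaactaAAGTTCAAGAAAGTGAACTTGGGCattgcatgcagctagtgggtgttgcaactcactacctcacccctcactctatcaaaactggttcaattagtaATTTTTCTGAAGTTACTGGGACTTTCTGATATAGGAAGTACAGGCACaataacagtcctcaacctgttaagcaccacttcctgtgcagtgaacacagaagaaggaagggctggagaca
Ms4a6c: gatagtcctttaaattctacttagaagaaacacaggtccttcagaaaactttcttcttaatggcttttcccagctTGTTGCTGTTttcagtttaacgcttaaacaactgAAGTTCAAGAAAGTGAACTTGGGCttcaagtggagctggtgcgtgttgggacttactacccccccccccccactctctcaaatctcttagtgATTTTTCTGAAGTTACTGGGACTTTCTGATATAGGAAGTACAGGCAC

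Between a Ms4a4 and a Ms4a6 window, the best local alignments were no longer than 32 bases. The stretch before the Tmem176b start that faces Tmem176a (chr6:48841375-48841504, minus strand) is shown since both genes are read out of it. Transcripts of both genes are also annotated to begin inside it. Capitals mark the letters GAGGAAG, a PU.1-type motif.
Tmem176b: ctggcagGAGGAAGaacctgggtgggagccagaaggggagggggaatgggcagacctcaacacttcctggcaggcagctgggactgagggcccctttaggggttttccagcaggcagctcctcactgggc

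On both strands of the 250 bases before each annotated start, 3 motifs were searched. GAGGAAG occurred in 10.6% of 32817 windows of that length over all genes, the C/EBP-type letters TTGCNNAA in 9.57% and the RUNX-type letters TGTGGTT in 4.39%. Of the 11 windows of the 7 genes, the windows of 1 of the 2 Tmem176a starts (48841656) and 1 of the 3 Tmem176b starts (48841374) held the same GAGGAAG match, and no other window held any of the 3 motifs, that of the other Tmem176a start (48841483) included. These are matches of letters in a window and show no binding.

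Levels are given as rescaled FPKM, that is mapped fragments per transcript length and library size as deposited and then divided by 1 factor per library (0.847 to 1.24) taken over the 10312 genes above 0 in every library. FPKM is scaled by length, so levels of different genes can be set beside each other. It carries no counts, so the absolute depth is unknown here. From the spacing of low values, the CIA+THz libraries were 1.36 to 1.86 times as deep as the shallowest Ctrl library, the CIA libraries 1.01 to 1.28 times and the Ctrl libraries up to 1.10 times. Alas2, a gene of red cell precursors, took 11.4% to 16.7% of the summed FPKM, so the RNA was not from leukocytes alone. In bulk blood, fewer cells of a type and less RNA per cell cannot be told apart. The number of genes called in each comparison was 1118 of 12366 tested for CIA against Ctrl (9.04%), 561 for CIA+THz against CIA (4.54%) and 975 for CIA+THz against Ctrl (7.88%). A gene was called where limma gave an unadjusted p under 0.05 and the difference of log2(rescaled FPKM + 0.1) exceeded 0.67 in size.

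The 8 genes covered a wide range of levels in Ctrl blood. Ms4a6b stood highest at 118 ± 11.3 rescaled FPKM (SD, n = 3) and Ms4a4b next at 116 ± 10.1, and the libraries of these genes overlapped. Ms4a4c at 53.5 ± 12.9 and Ms4a6c at 46.6 ± 2.44 also overlapped each other. Ms4a6d at 14.5 ± 3.81, Tmem176b at 4.98 ± 0.194 and Tmem176a at 1.18 ± 0.374 followed, each clear of the next. Ms4a7 was at the limit of detection. In CIA the order changed below Ms4a6b (112 ± 6.35), with Ms4a4c at 87.8 ± 7.21, Ms4a4b at 76.8 ± 9.28 and Ms4a6c at 72.6 ± 8.78. Ms4a4c overlapped Ms4a4b, and Ms4a4b overlapped Ms4a6c, while Ms4a6d (48.8 ± 3.03), Tmem176b (35.3 ± 4.91) and Tmem176a (7.64 ± 0.960) stood clear below. In CIA+THz the order was again that of Ctrl. There the libraries of Ms4a6b (135 ± 15.4) overlapped those of Ms4a4b (110 ± 8.97), and those of Ms4a6d (28.8 ± 1.93) overlapped those of Tmem176b (23.8 ± 8.80), while the other neighbours did not overlap.

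**Figure D1:**
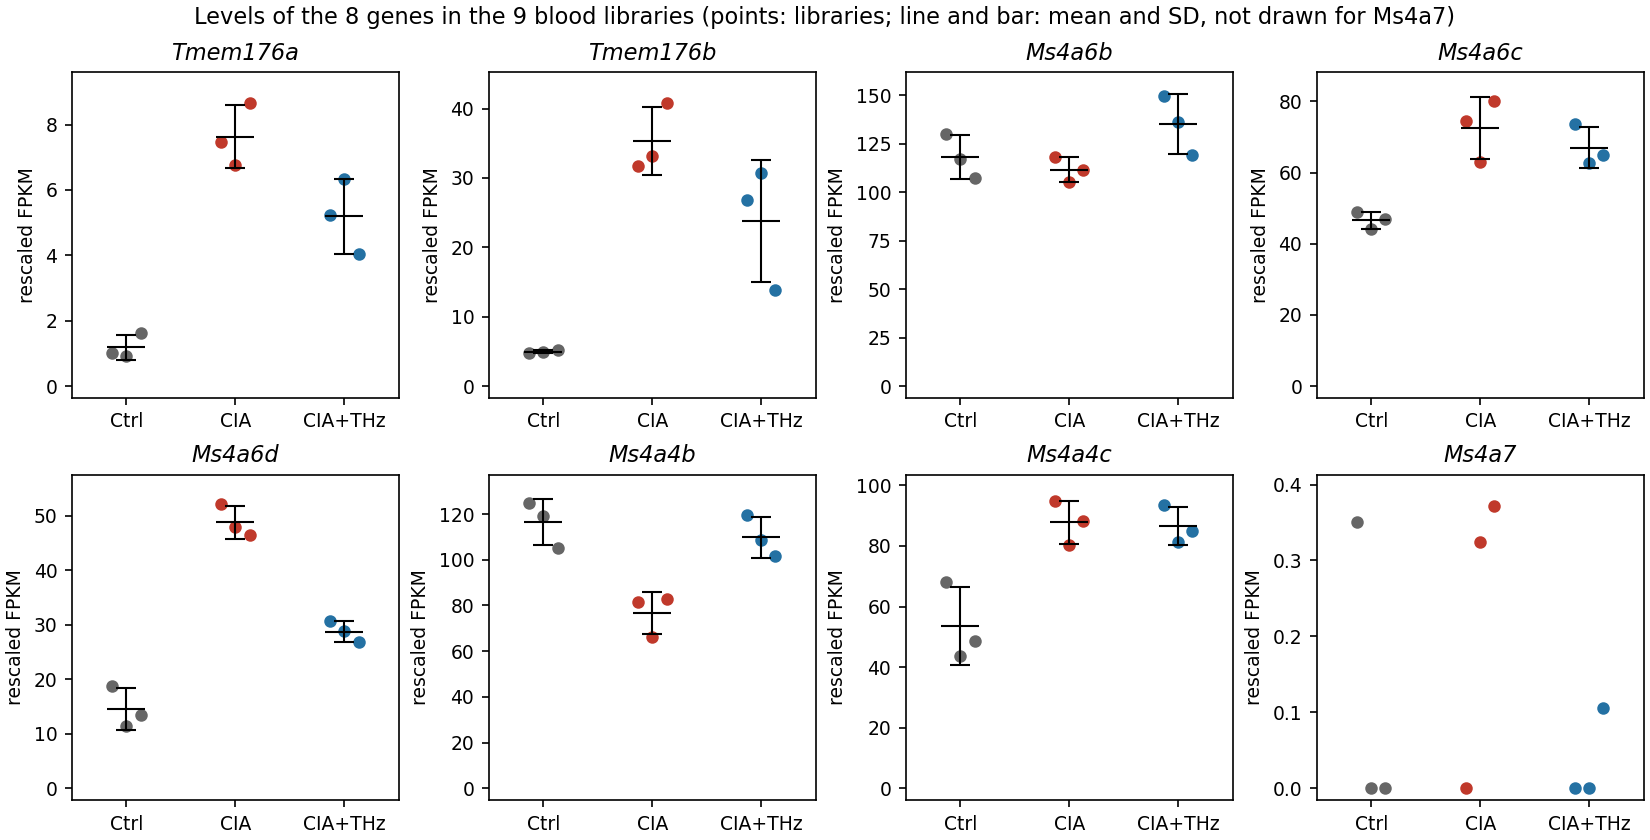
Level of each of the 8 genes (y axis, rescaled FPKM, starting near 0) in the Ctrl, CIA and CIA+THz libraries, 1 point per mouse, with the group mean and SD except for Ms4a7. Tmem176a, Tmem176b and Ms4a6d were higher in every CIA library than in any other library, and Ms4a4b was lower in every CIA library than in any other library.

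Tmem176b was 4.84, 4.90 and 5.20 rescaled FPKM in the Ctrl libraries. In CIA it was 31.7, 33.2 and 40.9, and in CIA+THz it was 26.9, 30.7 and 13.9. The CIA mean was 7.08 times the Ctrl mean, a difference of 2.79 (SE 0.15) on the log2 scale. No CIA or CIA+THz library overlapped Ctrl, and all 3 CIA+THz libraries lay below all CIA libraries, the nearest being 30.7 against 31.7. The difference of CIA+THz from CIA was -0.63 (SE 0.29), so that it stayed inside 0.67. It was -0.29 without CIA+THz 3, the library at 13.9, and -0.52 without CIA 3. Without CIA 1, CIA 2, CIA+THz 1 or CIA+THz 2 it was -0.71, -0.67, -0.76 and -0.86, each past the limit. Only without CIA+THz 2 did it pass the whole criterion. With FPKM as deposited the difference was -0.36.

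Tmem176a, its partner, was 1.02, 0.921 and 1.61 in Ctrl, 7.47, 6.77 and 8.67 in CIA, and 5.22, 6.32 and 4.04 in CIA+THz. The groups kept the same order and did not overlap. CIA differed from Ctrl by 2.62 (SE 0.29) on the log2 scale, which is 6.46 times the mean, and CIA+THz from CIA by -0.56 (SE 0.21), or -0.71 without CIA+THz 2 and -0.29 with FPKM as deposited. Tmem176b exceeded Tmem176a in every library by 3.23 to 5.32 times, and this ratio, which needs no scaling between libraries, had overlapping ranges in the 3 groups (3.23 to 5.32 in Ctrl, 4.25 to 4.91 in CIA, 3.44 to 5.15 in CIA+THz).

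Ms4a6d, a partner of the macrophage receptor Vsig4 in the control of the NLRP3 inflammasome, was 18.7, 11.4 and 13.5 in Ctrl. It was 52.2, 47.9 and 46.4 in CIA and 30.7, 28.8 and 26.8 in CIA+THz. The 3 groups were fully separated, with CIA highest and CIA+THz between the others. CIA was 3.36 times Ctrl (1.77 on the log2 scale, SE 0.19) and CIA+THz was 0.589 times CIA (-0.76, SE 0.10) and 1.98 times Ctrl (1.01, SE 0.19). With FPKM as deposited, CIA+THz differed from CIA by -0.49, short of the limit of 0.67. Vsig4 itself was listed at 0 in all 9 libraries.

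Ms4a6c, the closest to Ms4a6b in sequence and separated from it by Gm8369, was 48.9, 44.0 and 46.9 in Ctrl, 74.5, 63.0 and 80.2 in CIA, and 73.6, 62.6 and 65.0 in CIA+THz. The CIA and CIA+THz libraries overlapped each other and not Ctrl. The differences from Ctrl were 0.63 (SE 0.12) for CIA and 0.52 (SE 0.10) for CIA+THz, both under 0.67. Without CIA 2 the former was 0.73, and with FPKM as deposited the latter was 0.83, which are past it. CIA+THz against CIA was -0.11 (SE 0.12), and 0.17 with FPKM as deposited, so its sign depended on the scaling. Ms4a6b, in contrast, overlapped between Ctrl and CIA. It was 130.2, 117 and 108 in Ctrl, 118, 105 and 111 in CIA, and 149.8, 137 and 119 in CIA+THz. Ms4a6b was -0.08 (SE 0.11) in CIA against Ctrl and 0.27 (SE 0.11) in CIA+THz against CIA, where the lowest CIA+THz library lay just above the highest CIA library.

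The near-identical copies Ms4a4b and Ms4a4c went opposite ways in CIA. Ms4a4b was 125, 119 and 105 in Ctrl, 81.5, 66.1 and 82.8 in CIA, and 119.5, 108 and 102 in CIA+THz. All CIA libraries lay below all others, and Ctrl and CIA+THz overlapped. The differences were -0.60 (SE 0.13) for CIA against Ctrl, 0.52 (SE 0.12) for CIA+THz against CIA and -0.08 (SE 0.11) for CIA+THz against Ctrl. With FPKM as deposited these became -0.57, 0.80 and 0.22, so the second passed the limit and the last changed sign. Without Ctrl 3 the first was -0.67, just past the limit. Ms4a4c was 68.1, 43.8 and 48.6 in Ctrl, 94.8, 80.4 and 88.2 in CIA, and 93.7, 81.4 and 84.9 in CIA+THz. Both arthritic groups lay above Ctrl and overlapped each other. Ms4a4c differed from Ctrl by 0.74 (SE 0.18) in CIA and by 0.72 (SE 0.17) in CIA+THz, and without Ctrl 2 the differences were 0.61 and 0.59, below the limit. Against Ctrl, CIA+THz was also below it at 0.66 without Ctrl 3 or without CIA+THz 1. CIA+THz against CIA was -0.02 (SE 0.10), and 0.26 with FPKM as deposited.

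Ms4a7, known from tissue macrophages, was listed at 0 in 5 of the 9 libraries. It was 0.350 in Ctrl 1, 0.325 and 0.371 in CIA 2 and CIA 3, and 0.105 in CIA+THz 3. Those values are too low to order the groups, and the gene entered the fit only because its mean over all libraries was just above 0.1. Its differences, with standard errors of 0.74 to 0.91, are not read further.

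**Figure D2:**
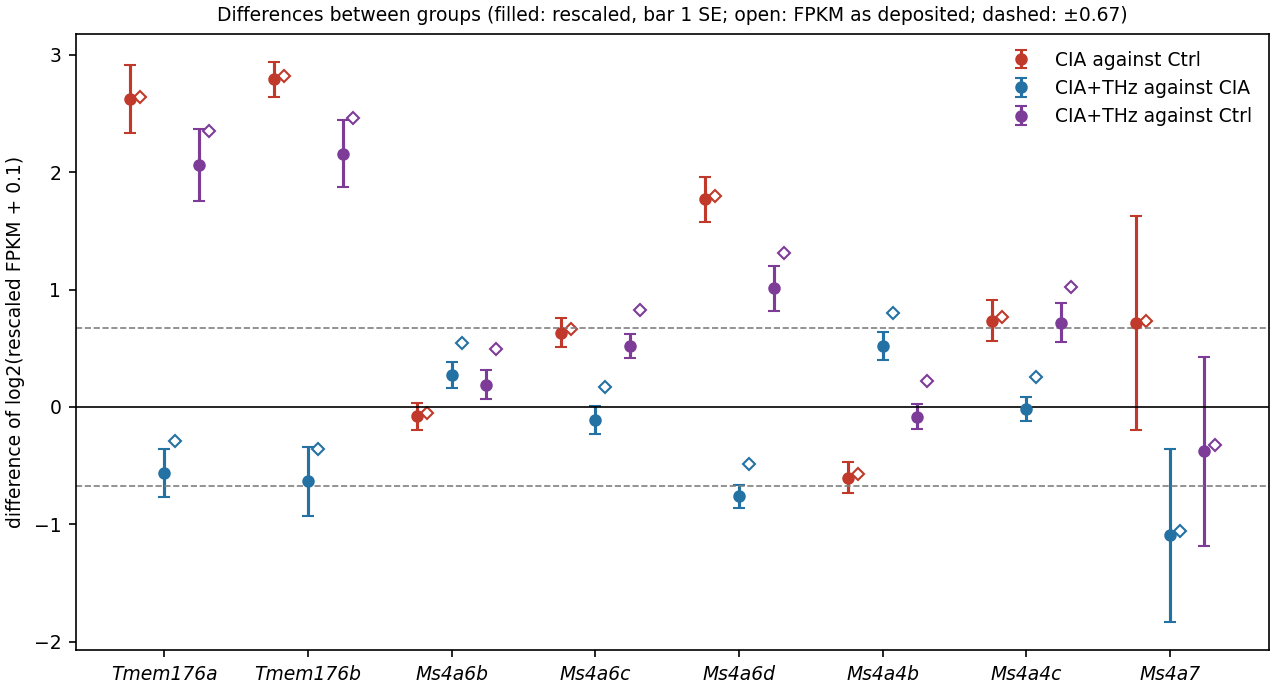
Difference between groups for each gene on the log2(rescaled FPKM + 0.1) scale (y axis) in the 3 comparisons, as filled points with 1 SE, and the same from FPKM as deposited as open diamonds. Tmem176a, Tmem176b and Ms4a6d were well above 0.67 in CIA against Ctrl, and the diamonds of both CIA+THz comparisons lie about 0.3 above their points for all genes but Ms4a7.

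Past the same criterion, 4 of the 8 genes stood higher in CIA than in Ctrl (Tmem176a, Tmem176b, Ms4a6d and Ms4a4c), beside 9.04% of all genes tested in either direction. The same 4 stood higher in CIA+THz than in Ctrl, beside 7.88% of all genes. Ms4a6d alone stood lower in CIA+THz than in CIA, beside 4.54% of all genes. The groups did not overlap for 6 of the 8 genes in CIA against Ctrl (23.5% of all genes tested), for 5 in CIA+THz against CIA (19.6%) and for 5 in CIA+THz against Ctrl (24%). Nothing is read from these counts, since the genes were picked with these differences in view, and the comparisons share the CIA or the Ctrl libraries. The median difference over the 8 genes was 0.73, -0.34 and 0.62 in the 3 comparisons, beside -0.01, 0.03 and 0.04 over all genes tested. The second of these was -0.06 with FPKM as deposited.

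The make-up of the Ms4a signal within a library does not depend on how libraries are scaled to each other. Of the summed FPKM of the 6 Ms4a genes, Ms4a6d made up 3.38% to 4.79% in Ctrl, 11.3% to 13.2% in CIA and 6.56% to 6.89% in CIA+THz. Ms4a4b made up 31.9% to 35.6% in Ctrl, 18.2% to 20.2% in CIA and 25.6% to 26.0% in CIA+THz. For both genes the 3 groups were apart, with CIA+THz between Ctrl and CIA. Ms4a6b shares were 33.3% to 34.9%, 27.2% to 29.0% and 29.9% to 32.7%, and Ms4a6c shares were 12.5% to 14.6%, 17.3% to 19.6% and 14.98% to 16.3%, in the same order of groups. Shares of a sum are tied to each other, so a gene's share can fall because others rise. The level of Ms4a6b overlapped between Ctrl and CIA (-0.08, SE 0.11), although its shares did not. For Ms4a4c, the shares of 13.1% to 17.4% in Ctrl lay below those of 21.6% to 22.5% in CIA and 19.5% to 21.4% in CIA+THz. The ratio of Ms4a6d to Ms4a6b was 0.0971 to 0.144 in Ctrl, 0.416 to 0.454 in CIA and 0.205 to 0.225 in CIA+THz.

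**Figure D3:**
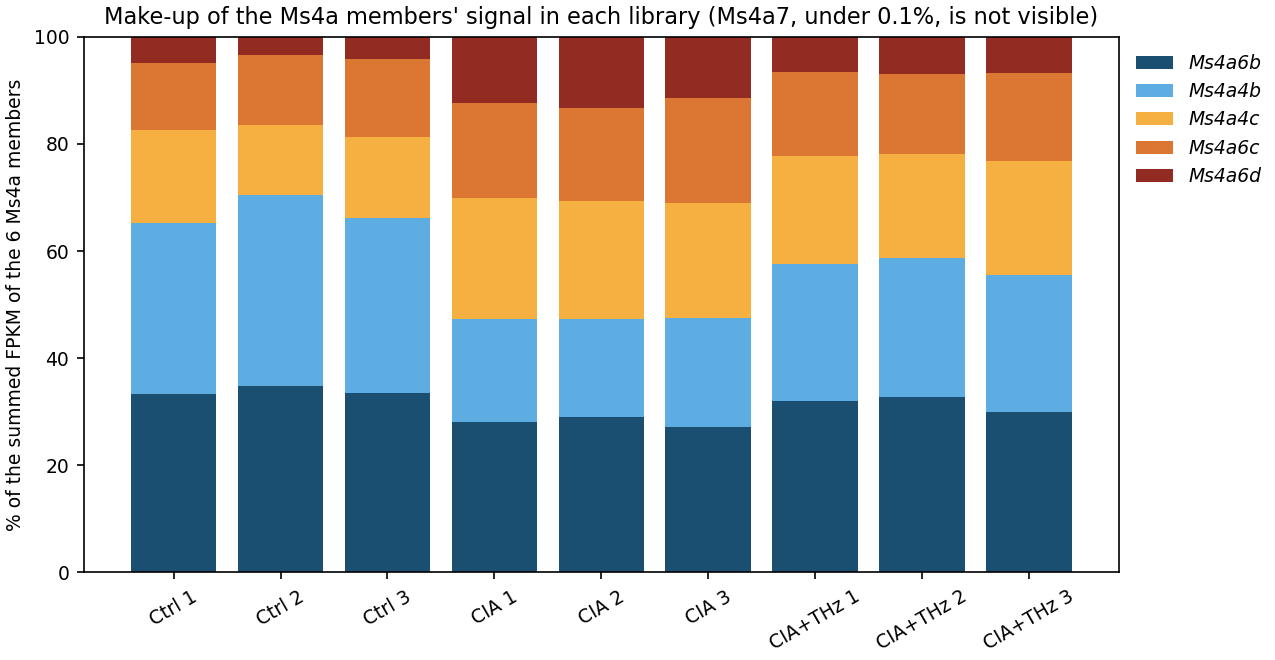
Share of the summed FPKM of the Ms4a genes (y axis, percent) taken by each gene in each of the 9 libraries (x axis), as stacked bars. Ms4a6d widened from 3.38% to 4.79% in Ctrl to 11.3% to 13.2% in CIA and was 6.56% to 6.89% in CIA+THz, and Ms4a4b narrowed from 31.9% to 35.6% to 18.2% to 20.2%.

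Among the other Ms4a genes, 14 were in the matrix, 8 of them were listed at 0 in all libraries and 6 were tested. Ms4a8a, described in macrophages, had a mean of 2.21 ± 0.488 rescaled FPKM in the Ctrl libraries, against 6.30 ± 0.898 with CIA and 3.66 ± 0.585 with CIA+THz (SD, n = 3). It passed the criterion in all 3 comparisons, with differences of 1.49 (SE 0.26, adjusted p = 0.0669 by limma), -0.77 (SE 0.20, adjusted p = 0.236) and 0.71 (SE 0.26, adjusted p = 0.219). Its call in CIA+THz against CIA was lost with FPKM as deposited, with a pseudocount of 1, and without CIA 2 or CIA+THz 2. The call in CIA+THz against Ctrl was lost with a pseudocount of 1, with the replicate number as a block, and without Ctrl 1, CIA+THz 1 or CIA+THz 3. Ms4a4a, which binds the lectin receptor Dectin-1 (Clec7a) in macrophages, had means of 2.78 ± 0.363 for Ctrl, 6.74 ± 1.80 for CIA and 6.56 ± 0.870 for CIA+THz. It passed in CIA against Ctrl (1.22, SE 0.26, adjusted p = 0.0922) and in CIA+THz against Ctrl (1.21, SE 0.20, adjusted p = 0.0711). The gene for CD20, Ms4a1, was 79.8 ± 2.61, 75.9 ± 9.53 and 93.1 ± 15.2 and did not pass in any comparison. Nor did the IgE receptor gene Ms4a2 at 28.8 ± 6.63, 19.6 ± 7.61 and 25.2 ± 1.84. Ms4a3 and Ms4a4d, at 0 in 6 and 5 libraries, did not pass either.

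**Figure D4:**
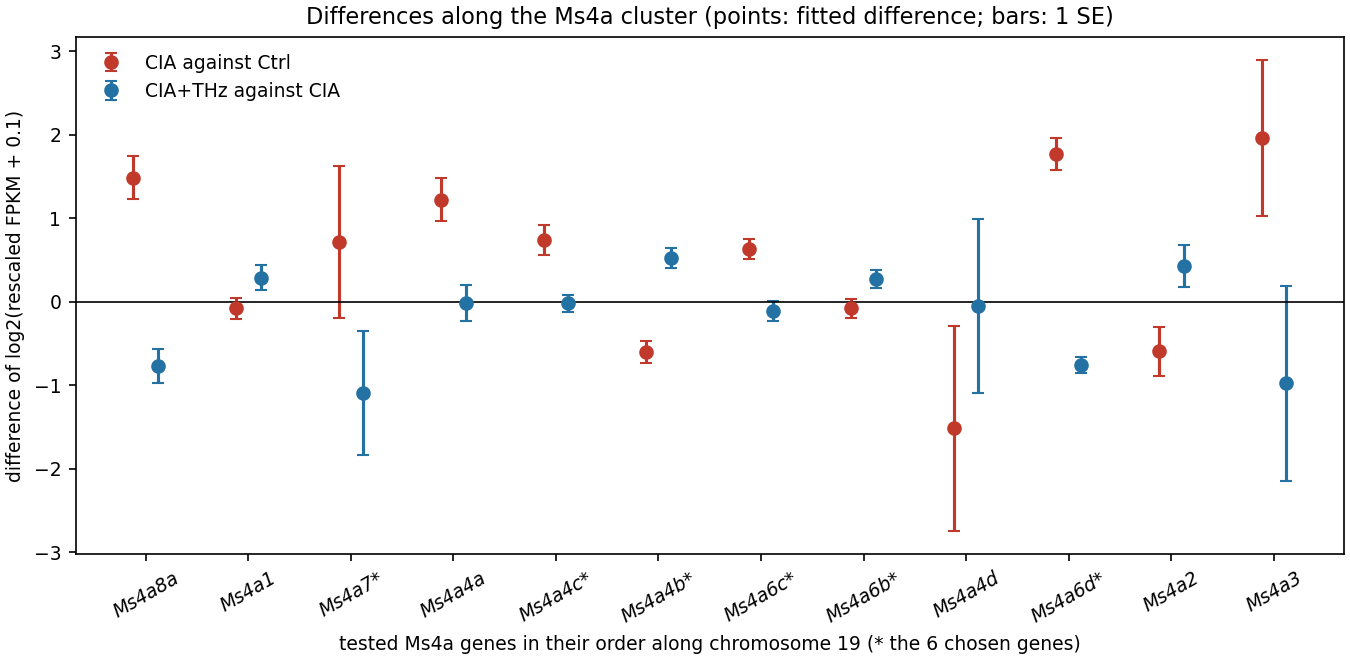
Difference of log2(rescaled FPKM + 0.1) with 1 SE (y axis) for the 12 tested Ms4a genes in their order along chromosome 19 (x axis), for CIA against Ctrl and CIA+THz against CIA, with the 6 chosen genes starred. Neighbours differ in sign, as Ms4a4c at 0.74 and Ms4a4b at -0.60 in CIA against Ctrl, and the genes near the limit of detection have the longest bars.

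The differences did not extend over the neighbouring genes as a block. Within the Ms4a cluster, Gm8369, which lies between Ms4a6c and Ms4a6b, did not pass in any comparison (0.54 in CIA against Ctrl, SE 0.44). Of the 5 genes annotated on each side of the cluster, 6 were tested and none was called in any comparison, with Ccdc86 at 0.76 (SE 0.44) in CIA against Ctrl. Before the Tmem176 pair lies the Gimap cluster of lymphocyte GTPases. Only the 5 nearest annotated genes on that side were taken, and 4 Gimap genes among them were tested. Gimap7 fell in CIA from 29.1 to 13.7 rescaled FPKM (-1.06, SE 0.20, adjusted p = 0.07001 by limma), opposite in sign to Tmem176b. Gimap1, Gimap3 and Gimap5 did not pass in any comparison. None of the 4 annotated genes after the pair that the matrix holds reached the level needed for the test.

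Genes known to act with these proteins were followed as a list of 8, which was chosen with earlier results of these data known. In CIA against Ctrl none was called by limma, beside 9.04% of all genes, and 1 (Fcer1g) had an unadjusted p under 0.05. Nlrp3, the inflammasome sensor, differed by -0.13 (SE 0.17), its adaptor Pycard -0.09 (SE 0.15), the protease Casp1 0.00 (SE 0.25) and its substrate Il1b 0.27 (SE 0.16). In CIA+THz against CIA 1 of the 8 was called, beside 4.54% of all genes. It was Fcer1a, the alpha chain of the IgE receptor, at 0.77 (SE 0.23, adjusted p = 0.265 by limma). There 4 others had an unadjusted p under 0.05 without reaching 0.67, all negative, namely Nlrp3 at -0.64, Fcer1g at -0.51, Il1b at -0.36 and Pycard at -0.32 (adjusted p of 0.210 to 0.338). This depended on the scaling. With FPKM as deposited, 2 of the 8 had an unadjusted p under 0.05, both called higher, so none of these 4 did. The median of the list was -0.34, and -0.06 with FPKM as deposited. Against Ctrl, the CIA+THz libraries had 2 of the 8 called, beside 7.88% of all genes. Fcer1a was called higher at 0.68 (SE 0.20, adjusted p = 0.165 by limma) and Nlrp3 lower at -0.77 (SE 0.16, adjusted p = 0.102). With FPKM as deposited, no gene of the list was called lower there. With a pseudocount of 1, none was called higher there or in CIA+THz against CIA. Tnfrsf18, the T cell partner of Ms4a4b, was -0.45 (SE 0.24) in CIA against Ctrl and 0.52 (SE 0.25) in CIA+THz against CIA and did not pass. Clec7a (0.61, SE 0.51) and Fcer1g (0.49, SE 0.15), the signal chain shared by Fc receptors, did not pass in CIA against Ctrl either. Tetraspanins, another family of four-pass proteins, were tested for 25 genes. Of these 1 was called higher and 2 lower in CIA against Ctrl, beside 9.04% of all genes, and the median difference was -0.22. In CIA+THz against CIA 2 were called, beside 4.54% of all genes, and in CIA+THz against Ctrl 4, beside 7.88%.

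Markers of some blood cell types moved with some of these genes and those of others did not, and their part in the results was not tested. Calls in the marker lists stand beside 9.04% of all genes tested in CIA against Ctrl. The shares were 4.54% in CIA+THz against CIA and 7.88% in CIA+THz against Ctrl. Of 12 classical monocyte markers, 7 were called higher in CIA than in Ctrl and none lower (median 0.86), 3 were called lower in CIA+THz than in CIA (median -0.47), and in CIA+THz against Ctrl 4 were higher and 1 lower (median 0.65). With FPKM as deposited none was called lower in CIA+THz than in CIA (median -0.19), and 7 were called higher and none lower in CIA+THz than in Ctrl. None of the 12 was at 0 in any library. Their summed level was 3424 to 3797 rescaled FPKM in Ctrl, 5735 to 6364 in CIA and 3824 to 4181 in CIA+THz, mostly Lyz2, whose means were 2717, 4715 and 2963. Of the 12 markers, 9 were above Ctrl in CIA+THz. Csf1r, the receptor that defines the lineage, passed in CIA against Ctrl at 1.07 (adjusted p = 0.0361 by limma), and the ratio of Tmem176b to Csf1r was 0.0481 to 0.0549 in Ctrl, 0.163 to 0.203 in CIA and 0.0925 to 0.223 in CIA+THz. The ratio to Csf1r was thus higher in all arthritic libraries than in any Ctrl library. Ratios to the other markers were not taken, and the markers rose by unequal amounts. In CIA the mean of Csf1r was 2.09 times that of Ctrl, and that of Fcgr1, the marker with the largest rise, 6.01 times. Tmem176b stood at 7.08 times. Of 8 macrophage markers, Mertk, Vsig4 and Marco were at 0 in every library. Of the 5 tested, 2 (Adgre1 and Cd68) were called higher in CIA against Ctrl. The others, C1qa, C1qb and C1qc, were found at low means of 0.860, 2.35 and 1.37 over all libraries and were not called there. The summed macrophage markers were 40.8 to 47.8, 79.3 to 104 and 65.1 to 79.1. Of 8 patrolling monocyte markers, 1 was called higher and 1 lower in CIA against Ctrl. All 8 were positive in CIA+THz against CIA, 2 of them called higher (median 0.43), and in CIA+THz against Ctrl 4 were called higher and none lower (median 0.67). With FPKM as deposited, 5 and 6 were called higher in these comparisons. Their sums were 116 to 168, 122 to 162 and 182 to 200.1.

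Of 12 neutrophil markers, 3 were called higher and 1 lower in CIA against Ctrl (median -0.03). All 12 were negative in CIA+THz against CIA, 4 of them called lower (median -0.45, and -0.17 with 3 called lower from FPKM as deposited). The CIA+THz libraries had 3 called higher and 4 lower than Ctrl (median -0.54). The 3 called higher in CIA encode granule proteins made by neutrophil precursors, and they are named here after their values were seen. Camp rose from 4.20 rescaled FPKM in Ctrl to 110.3 in CIA (4.86, adjusted p = 0.0361 by limma) and was 26.5 in CIA+THz. Ltf rose from 3.60 to 72.5 (4.08, adjusted p = 0.0361 by limma) and was 16.6 in CIA+THz, and Ngp rose from 66.8 to 588 (3.02, adjusted p = 0.0616 by limma) and was 146 in CIA+THz. All 3 were called lower in CIA+THz than in CIA and higher in CIA+THz than in Ctrl, the same order of groups as Tmem176a, Tmem176b and Ms4a6d. The list as a whole did not share this course, with 6 markers positive and 6 negative in CIA against Ctrl. Mmp8 was the 1 called lower there (-1.35, adjusted p = 0.105 by limma), and Lcn2 was at -0.38 (SE 0.26) and not called. The summed neutrophil markers, mostly S100a9, were 12678 to 21421, 14771 to 19457 and 10855 to 12339, and none was at 0. The dendritic cell, B cell, basophil, platelet and red cell precursor lists gave 1, 2, 1, 0 and 0 genes called higher and 1, 0, 1, 0 and 0 lower when CIA was set against Ctrl, and 0, 0, 2, 0 and 0 higher and 0, 0, 0, 0 and 1 lower in CIA+THz against CIA. All 6 platelet markers were negative in the latter (median -0.49). By limma 5 of them had an unadjusted p under 0.05, and 0 with FPKM as deposited (median -0.21). In CIA+THz against Ctrl the lists gave 0, 3, 1, 0 and 0 higher and 1, 0, 0, 0 and 3 lower, and all 9 B cell markers were positive (median 0.55).

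Beside Ms4a4b and Ms4a6b, all 13 T cell markers were negative in CIA against Ctrl (median -0.28), of which none was called by limma and 4 had an unadjusted p under 0.05, and all 13 were positive in CIA+THz against CIA (median 0.35) with 1 called, Cd5 (adjusted p = 0.239 by limma). With FPKM as deposited, the median of all genes in CIA+THz against CIA shifted up by 0.27, and 4 T cell markers were called higher. The summed T cell markers were 443 to 510 in Ctrl, 373 to 415 in CIA and 455 to 613 in CIA+THz. No T cell marker was at 0 in any library. Of 9 NK cell markers, 5 were called lower in CIA against Ctrl (median -0.97) and 2 higher in CIA+THz against CIA. Their sums were 165 to 215, 69.7 to 146 and 113 to 170.1, and none was at 0. Of 10 genes used by every cell, none was called by limma in CIA against Ctrl (median 0.24), where 2 had an unadjusted p under 0.05. In CIA+THz against CIA 1 was called lower, Rplp0, and 5 in all, each of them lower, had an unadjusted p under 0.05 (median -0.22, and 0.06 with FPKM as deposited).

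**Figure D5:**
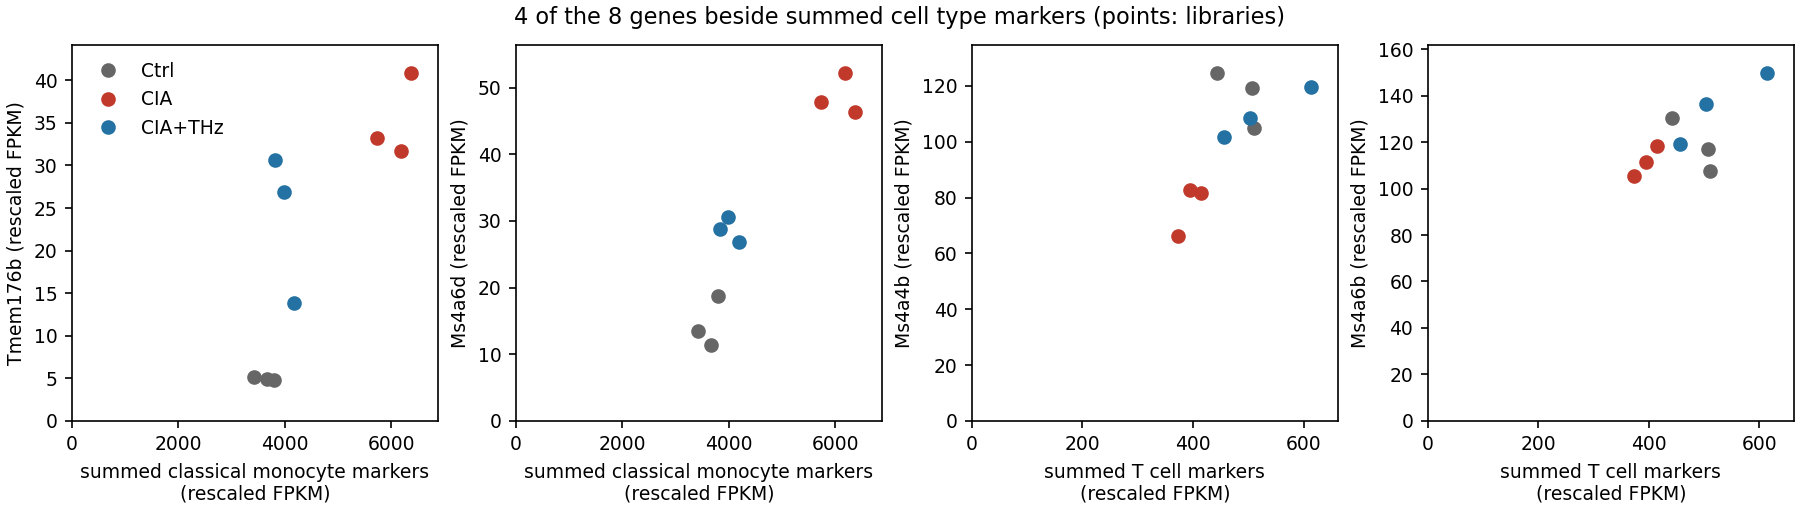
Level of Tmem176b and Ms4a6d against the summed classical monocyte markers, and of Ms4a4b and Ms4a6b against the summed T cell markers (both axes rescaled FPKM from 0), with 1 point per library coloured by group. The CIA libraries stand apart at 5735 to 6364 for the monocyte markers, and the sum is mostly Lyz2, so its position does not show the other monocyte markers, of which most were above Ctrl in CIA+THz.

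Genes with the most similar course over the 9 libraries were found by Pearson's r on the log2(rescaled FPKM + 0.1) scale among genes with a mean of at least 1. These r are a description, since the libraries share their groups. Nearest to Tmem176a and to Tmem176b outside the 8 was Dbnl (r = 0.99 and 0.98). For Ms4a6d the nearest were Gm2a (0.99), Cd68 (0.99) and Npc2 (0.98), whose products work in lysosomes. For Ms4a4c, Psmd1 and the Fc receptor Fcgr1 stood nearest (both 0.97), for Ms4a6c Bak1 and Ifi202b (both 0.98), for Ms4a4b Slc25a36 and Smc6 (both 0.97), and for Ms4a6b Tbxa2r (0.97). Between the 8 genes, r was 0.98 for Tmem176a with Tmem176b and 0.92 for Ms4a6c with Ms4a4c. It was also 0.92 to 0.93 for either Tmem176 gene with Ms4a6c or Ms4a6d. Once group means were removed, r was 0.68, 0.61 and 0.05 to 0.27 for these in turn. It was -0.41 for Ms4a4b with its copy Ms4a4c, and 0.54 once group means were removed. For Ms4a6d with Ms4a4c, r of the deviations from the group means was 0.94.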

How the data were processed

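Blood RNA of 9 mice, 3 per group, was sequenced by the authors with 2 × 150-base reads from TruSeq RNA V2 libraries on an Illumina HiSeq. The submitters' processing notes name bcl2fastq 2.0, HISAT2, StringTie, DESeq2 and the build mm10, without roles or settings. The authors deposited FPKM, 1 column per library, for 20926 gene symbols. The low values moved in steps of aligned bases, so relative but not absolute depth could be estimated, and the precision of low genes is unknown.

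Each column was divided by its median-of-ratios factor. Genes with a mean of at least 0.1 (12366) were tested on log2(rescaled FPKM + 0.1) with limma 3.58.1 (lmFit, eBayes with trend) in R 4.3.3, each pair of groups on its 6 libraries, at an unadjusted p under 0.05 and a log2 difference above 0.67, and Benjamini-Hochberg adjusted p over all genes tested stand beside calls. The scripts were tested on simulated data. Differences understate the change of genes near 0. The 8 genes, the marker and partner lists and the motifs were chosen with earlier results of these data known. Genes named outside the 8 were the other Ms4a genes, up to 5 annotated neighbours on each side, the 3 most similar genes per member (not all are printed), the partner list and, of the marker lists, defining genes. Camp, Ltf, Ngp, Mmp8, Lcn2, Rplp0, Lyz2, S100a9, C1qa, C1qb, C1qc and, as a monocyte marker, Fcgr1 were named after their values were seen. Tspan symbols and 7 CD genes were counted as tetraspanins. Alignments used Biopython 1.88 with GENCODE M21 transcripts (longest complete coding sequence). Libraries of a group are different mice. Replicate numbers pair no animals. Alternatives were leaving out each library, a replicate block, the adjusted p, all 9 libraries in a fit, no trend, no or a stricter filter, a pseudocount of 1 and unscaled FPKM.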

Additional observations from a re-analysis of the deposited data

How the results depend on the processing

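The number of genes past the criterion in CIA against Ctrl was 1118 and fell to 19 at limma's adjusted p under 0.05. In CIA+THz against CIA it was 561 and became 1192 with FPKM as deposited (94.5% of them higher, against 64.7%), 283 with a pseudocount of 1 and 0 at limma's adjusted p under 0.05, where 1634 genes had an unadjusted p under 0.05. In CIA+THz against Ctrl it was 975 and became 1716 with FPKM as deposited (93.0% higher, against 58.9%) and 13 at an adjusted p under 0.05. Across the 3 groups, 2629 genes had an unadjusted p under 0.05 and 313 an adjusted one. FPKM as deposited shifted the median of all genes by 0.27 and 0.30 in the CIA+THz comparisons.

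Of the 8 genes, the number past the criterion was 4, 1 and 4 in the 3 comparisons, and 0 in both CIA+THz comparisons at an adjusted p under 0.05. Their median difference in CIA+THz against CIA, -0.34, was -0.061 with FPKM as deposited, -0.17 with a pseudocount of 1 and -0.11 with a mean of at least 1, which leaves out Ms4a7. In CIA+THz against Ctrl it was 0.62, and 0.93 with FPKM as deposited. Leaving out 1 library at a time gave 966 to 1261 genes, 3 to 5 of the 8 and a median of 0.60 to 1.18 in CIA against Ctrl (the highest without Ctrl 1). It gave 484 to 745 genes, 1 to 3 of the 8 (3 without CIA+THz 2) and -0.43 to -0.19 in CIA+THz against CIA, and 724 to 1487 genes, 3 to 4 of the 8 and 0.53 to 0.73 in CIA+THz against Ctrl, where Ctrl 3 gave the highest count. Over these alternatives, Tmem176a, Tmem176b, Ms4a6d and Ms4a6b kept their sign in all 3 comparisons, and the rest of the 8 did not. For Ms4a6b this held although its difference in CIA against Ctrl was only -0.15 to -0.01.

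Replicate numbers showed no pairing, with correlations of deviations from -0.05 to 0.03 between libraries of the same number. With the number as a replicate block, the counts were 1073, 506 and 967, with 4, 1 and 4 of the 8 genes, and 2399 across the groups. Groups of 3 limit the precision, and depth differed between the groups.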
